A study of Homo sapiens with 32 samples.

Results

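The 46 genes described here encode the machinery that licenses, starts, and carries out DNA replication, together with the cyclins E and E2F factors that act at the transition from G1 to S phase of the cell cycle. They were chosen by name, as the rows of the deposited count and TPM tables whose gene symbol was on a list of 46, and all 46 were found among 25498 symbols and passed the filter on low counts. RNA was sequenced from LNCaP cells, an androgen-dependent prostate cancer line established from a lymph node metastasis, in 8 groups of 4 libraries, each made in 2 batches of 2 biological replicates. Cells of 1 group grew in medium with fetal bovine serum (FBS). For the other 7 groups the medium was exchanged 1 day after plating for medium with charcoal-stripped serum (CSS), which lacks most steroid hormones, and on the next day the cells were left as they were (CSS) or received 100 ng/mL EGF or 100 ng/mL NRG-1 for 5 minutes, 1 hour, or 4 hours. No ligand was given in FBS, so that every ligand group shares the stripped serum with its control. The labels give no time for the CSS libraries, so no CSS control is known to match 1 or 4 hours of ligand. In changes against CSS at those times, and between them, ligand and further time in CSS cannot be told apart. EGF binds EGFR, and NRG-1 binds HER3 and HER4.

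In G1, the origin recognition complex, CDC6, and CDT1 load the ring of MCM2 to MCM7 onto DNA, which licenses an origin. At the start of S phase, cyclin E with CDK2 drives the addition of CDC45 and the GINS complex, which completes the active helicase, and PCNA then clamps the polymerases to the template. Most of these genes are transcribed in a wave at the end of G1 by E2F factors, which are held back by the retinoblastoma proteins until cyclin D and cyclin E kinases phosphorylate them.

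Library totals ran from 63822654 to 92401724 expected counts (median 77866194), and the totals of FBS, CSS, and ligand libraries overlapped. Luminal prostate markers were expressed (*HOXB13* 163 to 389 TPM and *KRT8* at least 306 TPM in every library), whereas 7 of 12 markers of leukocytes, endothelium, stroma, and basal cells (*PTPRC*, *CD3E*, *PECAM1*, *COL1A2*, *DES*, *KRT5*, and *TP63*) were at or below 0.04 TPM in all 32 libraries. The other 5 were detected, *ACTA2* at 5.35 to 19.8 TPM, *CD68* at 2.24 to 16.2 TPM, *COL1A1* at 1.36 to 5 TPM, *VWF* at 0.7 to 3.1 TPM, and *KRT14* at 0.01 to 2.17 TPM. The summed level of all 12 was 15.6 to 17.9 TPM in CSS, 12.4 to 14.8 TPM in FBS, 28.7 to 35.5 TPM after 4 hours of EGF, and 20.5 to 26.8 TPM after 4 hours of NRG-1. Of these 12, 6 passed the filter, and the macrophage marker *CD68* moved most after 4 hours (2.03 on the log2 scale with EGF and 1.38 with NRG-1); whether this bears on the values below was not tested. Batch 2 differed from batch 1 for 35 of the 46 genes (adjusted p below 0.05, edgeR), and 9442 of all 16995 genes tested did so. Every comparison below was therefore fitted with a batch term, in edgeR's quasi-likelihood test, with Benjamini-Hochberg adjusted p values over all 16995 genes, and a gene is called where the adjusted p was below 0.05.

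All 46 genes were higher in FBS than in CSS, where 26.0% of all genes tested were called higher and 26.8% lower. The median difference of the 46 was 1.43 on the log2 scale (range 0.33 to 2.15), whereas the median over all genes tested was -0.01. For 41 of the 46 the log2 fold change also exceeded 1, as it did for 4.91% of all genes. In these bulk samples, fewer cells in S phase and less RNA of these genes per cell cannot be told apart. For 44 of the 46, each FBS library was above all 28 other libraries of the series, which was so for 8.31% of all genes tested. The exceptions were *POLE* and *CCNE1*. Tested as log2(TPM + 1) in limma, 45 of the 46 calls remained, where 2338 of 13394 genes were called higher. On that scale the median of all genes was shifted by -0.17. The median of the 46 was 1.14, or 1.31 above that of all genes.

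**Figure D1:**
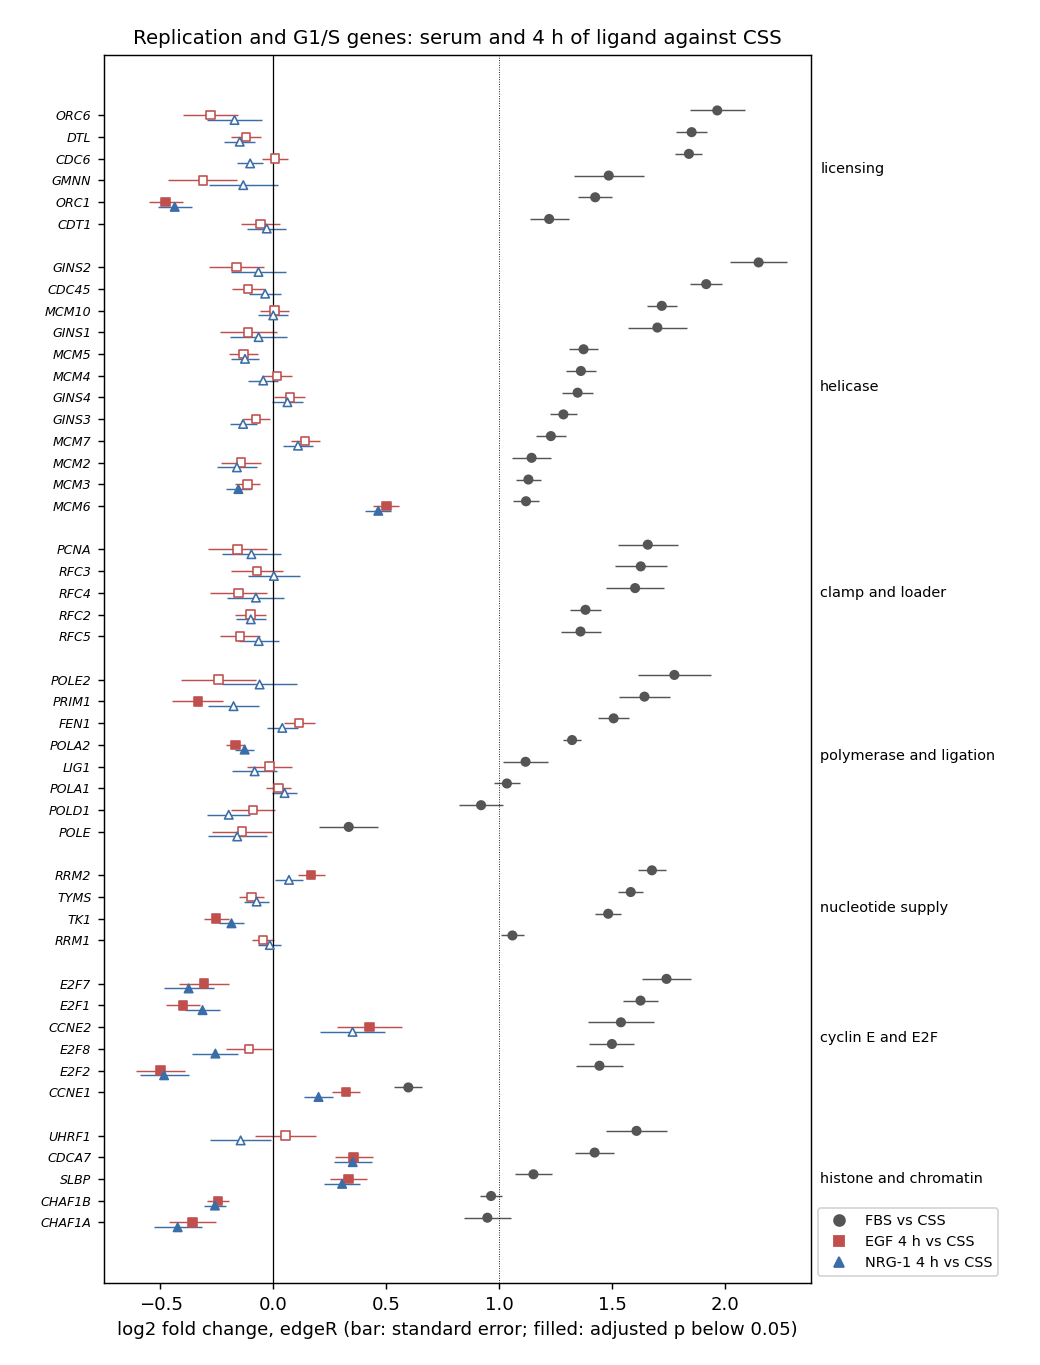
Log2 fold change of each of the 46 genes against CSS (horizontal axis) in FBS (dark circles), after 4 h of EGF (red squares), and after 4 h of NRG-1 (blue triangles), with the genes in rows grouped by role and bars showing the standard error of the edgeR fit. Filled symbols are called, and the dotted line marks a log2 fold change of 1. All FBS symbols lie between 0.33 and 2.15, and the ligand symbols lie between -0.50 and 0.50.

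Licensing factors were all higher in FBS than in CSS, with 6 of 6 called and a median log2 difference of 1.66. *ORC6*, the smallest subunit of the origin recognition complex, had 64.1, 71.6, 73.9, and 87.8 CPM (library-scaled read counts, after TMM normalization) in the FBS libraries and 17.4, 18.5, 18.6, and 21.5 CPM in the CSS libraries. The lowest FBS library was thus above the highest CSS library, and the log2 difference was 1.96 (SE 0.12, adjusted p = 9.2e-14, edgeR). *DTL*, the substrate receptor through which the CUL4 ubiquitin ligase removes CDT1 in S phase, had 91.5, 84.4, 65.0, and 55.7 CPM in FBS and 23.3, 23.5, 17.6, and 17.5 CPM in CSS. The difference was 1.85 (SE 0.069), with batch 2 below batch 1 under both conditions. *CDC6*, the loading factor, differed by 1.84, and *GMNN*, which encodes the CDT1 inhibitor geminin, by 1.48. *CDT1* had the smallest difference of the group, 1.22.

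All 12 genes of the replicative helicase were called higher, with a median of 1.35. *GINS2* showed the largest difference of the 46 genes: FBS libraries had 71.3, 83.9, 73.8, and 105 CPM, and CSS libraries had 19.8, 19.4, 16.3, and 19.9 CPM. Its log2 difference was 2.15 (SE 0.13, adjusted p = 2.2e-14, edgeR), a fold of 4.43. *CDC45*, which binds the MCM ring to form the active helicase, had 64.4, 70.4, 53.9, and 60.7 CPM in FBS and 17.6, 18.4, 14.3, and 15.8 CPM in CSS. That difference of 1.92 (SE 0.072) was also far beyond the spread of either group. The MCM ring itself moved less than these partners, from 1.12 for *MCM6* and 1.13 for *MCM3* to 1.37 for *MCM5*, and *MCM10*, which helps to activate the loaded ring, differed by 1.72. Within the GINS complex the differences were unequal, at 2.15 for *GINS2*, 1.70 for *GINS1*, 1.35 for *GINS4*, and 1.28 for *GINS3*; these values are descriptions, and the differences between subunits were not tested.

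The sliding clamp and its loader were called in 5 of 5, with a median of 1.60. *PCNA*, the clamp, had 401, 449, 389, and 517 CPM in FBS and 145, 136, 124, and 151 CPM in CSS, and the log2 difference was 1.66 (SE 0.13). Among the loader subunits, *RFC3* and *RFC4* differed by 1.63 and 1.60, and *RFC2* and *RFC5* by 1.38 and 1.36. Polymerase and ligation genes were called in 8 of 8, but they covered the widest range. *POLE2*, the second subunit of the leading-strand polymerase epsilon, had 10.6, 12.8, 13.9, and 16.7 CPM in FBS and 4.11, 3.75, 3.56, and 4.28 CPM in CSS, a log2 difference of 1.77 (SE 0.16). The catalytic subunit of the same enzyme, *POLE*, had 62.1, 54.7, 54.6, and 46.9 CPM in FBS and 42.5, 48.0, 44.7, and 37.9 CPM in CSS. The groups overlapped for *POLE*, and its difference of 0.33 (SE 0.13, adjusted p = 0.034, edgeR) was the smallest of the 46 genes. The call of *POLE* held in 8 of 12 alternatives. *POLD1*, the catalytic subunit of polymerase delta, differed by 0.92, and the primase subunit *PRIM1* by 1.64.

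Nucleotide supply genes were called in 4 of 4, with a median of 1.53. *RRM2*, the regulatory subunit of ribonucleotide reductase, had 360, 350, 301, and 265 CPM in FBS and 112, 116, 84.6, and 88.4 CPM in CSS. Its difference was 1.68 (SE 0.062), whereas *RRM1*, the large subunit, differed by 1.06. Thymidylate synthase (*TYMS*) and thymidine kinase (*TK1*) differed by 1.58 and 1.48. Of the cyclin E and E2F genes, 6 of 6 were called, and *E2F7*, a repressor of E2F targets, differed most: 32.3, 28.1, 23.7, and 19.0 CPM in FBS against 7.52, 9.90, 7.14, and 6.21 CPM in CSS, or 1.74 (SE 0.11). The cyclins E diverged. *CCNE2* differed by 1.54 (SE 0.15), and *CCNE1*, at 22.1, 18.1, 19.7, and 20.8 CPM in FBS and 12.0, 12.1, 14.9, and 14.6 CPM in CSS, by 0.60 (SE 0.062). Histone and chromatin genes were called in 5 of 5. *UHRF1*, which brings the maintenance methyltransferase to newly copied DNA, had 83.4, 66.2, 54.9, and 46.2 CPM in FBS and 20.6, 22.5, 20.6, and 17.9 CPM in CSS, a difference of 1.61 (SE 0.14). *CHAF1A* and *CHAF1B*, subunits of the chromatin assembly factor that deposits histones behind the fork, stayed under a log2 difference of 1, at 0.95 and 0.96.

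**Figure D2:**
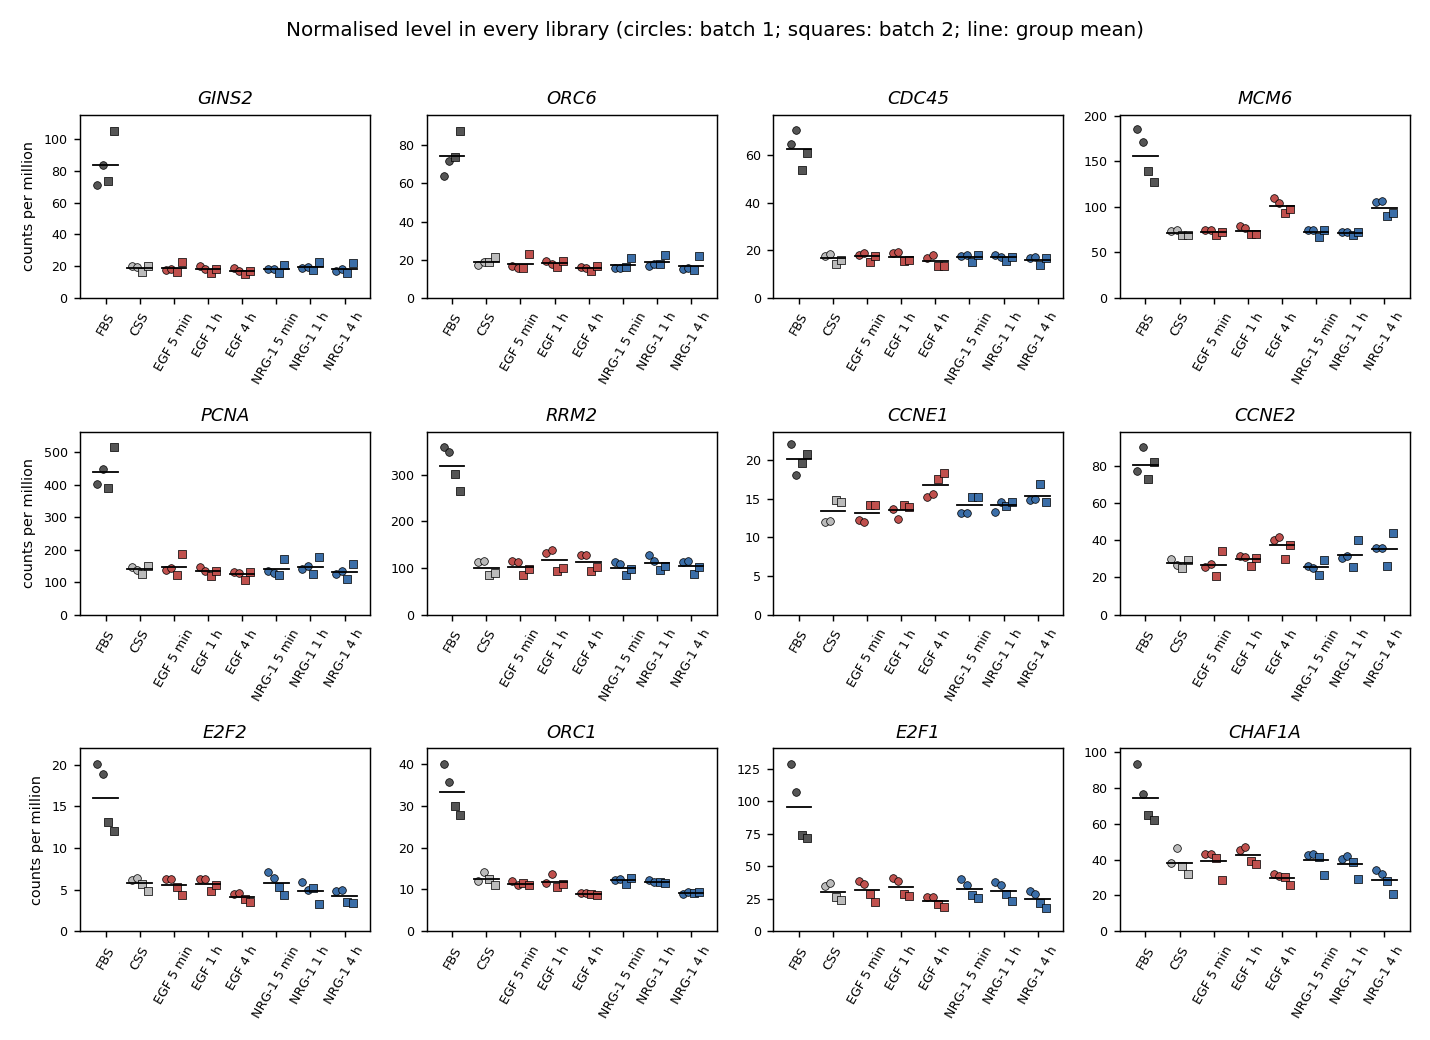
Normalized level (CPM, linear axes from 0) of 12 of the 46 genes in each of the 32 libraries, by group; circles are batch 1, squares are batch 2, and lines are group means. For *GINS2* the FBS libraries lie between 71.3 and 105 CPM and all others at or below 22.7 CPM, whereas for *CCNE1* the highest library after 4 h of EGF (18.4 CPM) is above the lowest FBS library (18.1 CPM).

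In the libraries left in CSS, levels per transcript length (TPM) spanned a wide range across the 46 genes. *PCNA* was the highest at 210 ± 13.9 TPM (SD, n = 4), followed by *TYMS* at 104 ± 13.8 TPM and *RRM1* at 87.4 ± 14.6 TPM, whose ranges of 1 SD overlap each other. The lowest were *E2F8* at 3.99 ± 1.04 TPM, *E2F7* at 2.36 ± 0.616 TPM, and *E2F2* at 1.97 ± 0.334 TPM, and the last 2 do not differ beyond their spread. In FBS, *PCNA* (576 ± 37.3 TPM) and *E2F2* (4.83 ± 1.66 TPM) were again the highest and the lowest. *E2F1*, the activator, was at 20.8 ± 5.23 TPM in CSS and 57.5 ± 22.1 TPM in FBS. The lowest mean of any gene in any group was 1.32 TPM, for *E2F2* after 4 hours of EGF.

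**Figure D3:**
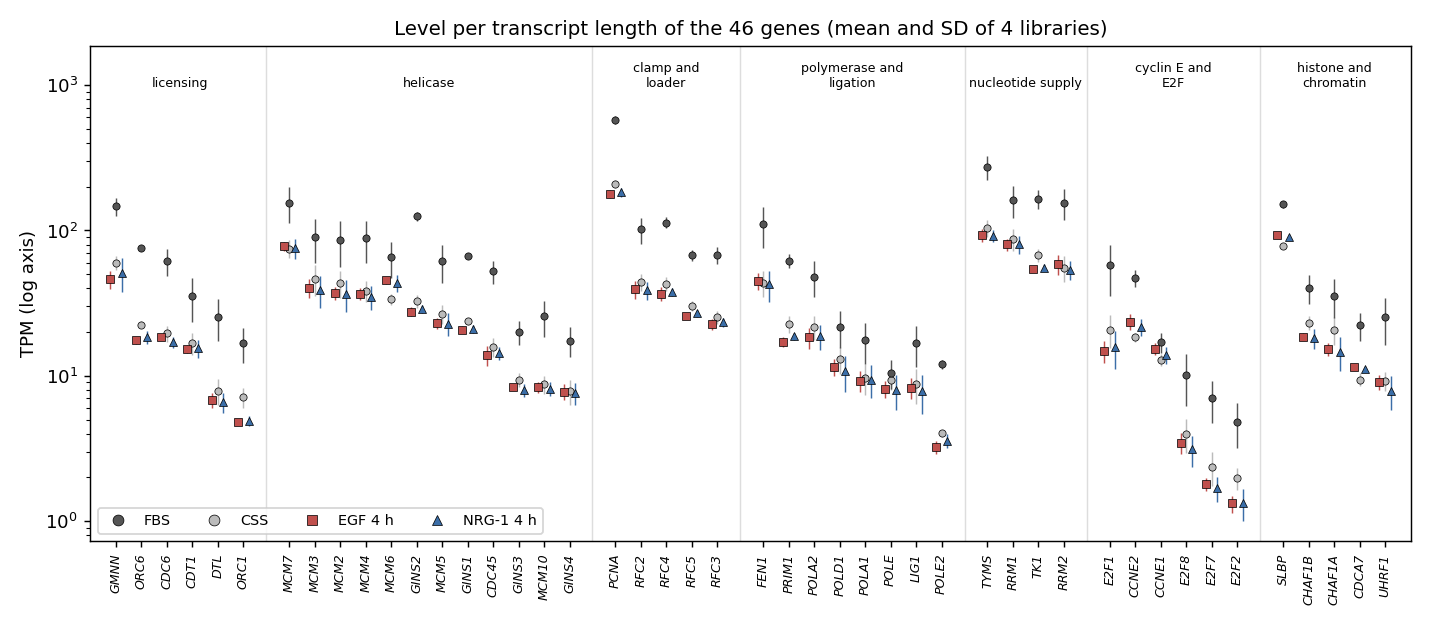
Mean level of each gene in TPM (log axis) with the SD of 4 libraries, in FBS (dark circles), CSS (light circles), and after 4 h of EGF (red squares) or NRG-1 (blue triangles), grouped by role. *PCNA* is the highest gene in CSS and FBS (210 and 576 TPM) and *E2F2* the lowest (1.97 and 4.83 TPM), and the 4 h symbols lie near those of CSS.

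Since all 46 genes were higher in FBS than in CSS, their RefSeq promoter windows (250 bases before to 50 bases after the start site, GRCh38.p14) were searched for E2F sites. These were spelled TTTCCCGC, TTTCGCGC, TTTGCCGC, or TTTGGCGC, on both strands. Windows matched 41 of the 46 genes by symbol (*MCM4*, *MCM5*, *GINS4*, *CCNE2*, and *E2F8* had none). At least 1 match was found for 23 of the 41 genes (56.1%), compared with 1090 of 27305 genes (3.99%) in the whole table. Of the 31 matches, 20 started within 100 bases before the start site. By role, a match was found for 7 of 9 helicase genes, 4 of 6 licensing genes, 5 of 8 polymerase and ligation genes, 2 of 5 clamp and loader genes, 2 of 4 cyclin E and E2F genes, 2 of 5 histone and chromatin genes, and 1 of 4 nucleotide supply genes. The CCAAT box was found for 24 of 41 genes (58.5%; 39.7% of all genes), and the CHR element (TTTGAA or TTCGAA), known from promoters of mitotic genes, for 2 of 41 (4.88%; 19.5% of all genes). Genes with an E2F match had a median log2 difference in FBS of 1.44 (n = 23), and those without 1.45 (n = 18), so a match in this window did not go along with a larger difference. E2F spellings can overlap each other on opposite strands, and such matches were counted separately.

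The stretches around the E2F matches are shown for 8 of the genes whose values are given by library, because they are the letters behind the count. Each is written 5′ to 3′ on the strand of the gene, with the matched letters in capitals, and lies wholly before the start site. *MCM6* is the one with overlapping matches, 4 in 2 blocks of the same 12 letters. In *GINS2*, *PCNA*, *UHRF1*, and *CDCA7* the match lies on the opposite strand and therefore reads GCGGGAAA. Also on the opposite strand are GCGGCAAA in *E2F1* and, in each *MCM6* block, GCGCGAAA, which overlaps TTTGGCGC.
GINS2 (chr16:85688955-85689010, minus strand): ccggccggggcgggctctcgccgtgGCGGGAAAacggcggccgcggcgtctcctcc
PCNA (chr20:5126649-5126706, minus strand): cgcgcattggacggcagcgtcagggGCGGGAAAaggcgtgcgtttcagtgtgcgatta
MCM6 (chr2:135876497-135876620, minus strand): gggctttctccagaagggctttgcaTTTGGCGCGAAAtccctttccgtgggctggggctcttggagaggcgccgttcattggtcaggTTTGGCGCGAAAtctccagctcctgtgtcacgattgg
DTL (chr1:212035715-212035747, plus strand): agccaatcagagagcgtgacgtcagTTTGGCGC
E2F1 (chr20:33686386-33686443, minus strand): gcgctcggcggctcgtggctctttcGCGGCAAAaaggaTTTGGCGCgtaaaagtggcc
E2F2 (chr1:23531243-23531300, minus strand): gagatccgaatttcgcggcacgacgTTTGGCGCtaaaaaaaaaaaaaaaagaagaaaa
UHRF1 (chr19:4909462-4909500, plus strand): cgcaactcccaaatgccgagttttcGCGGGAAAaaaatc
CDCA7 (chr2:173354782-173354839, plus strand): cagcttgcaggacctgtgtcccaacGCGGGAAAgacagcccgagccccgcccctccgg

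The differences after 4 hours of EGF were set next to those of FBS, against the same CSS libraries. The times are unlike, since CSS medium was given the day before the ligand, whereas EGF acted for 4 hours. What a longer time with ligand would do was not tested. After 4 hours of EGF, 6 of the 46 genes were called higher and 9 lower, with 31 not called, where 24.6% of all genes tested were called higher and 24.6% lower. The median over the 46 was -0.11 (range -0.50 to 0.50; all genes -0.02). None passed a log2 fold change of 1 in either direction, which 5.86% of all genes did upward and 629 of 16995 genes did downward. The genes called higher were *MCM6*, *CCNE2*, *CDCA7*, *SLBP*, *CCNE1*, and *RRM2*, and those called lower were *E2F2*, *ORC1*, *E2F1*, *CHAF1A*, *PRIM1*, *E2F7*, *TK1*, *CHAF1B*, and *POLA2*. A fit with the replicate number as a block called 4794 of 16995 genes higher and 4891 lower. Of the 46, 7 were then called higher and 17 lower. Those added were *MCM7* upward and *ORC6*, *GMNN*, *MCM2*, *MCM3*, *MCM5*, *PCNA*, *RFC5*, and *POLE2* downward. Tested as log2(TPM + 1) in limma, the split was 5 higher and 20 lower. On that scale 2471 of 13394 genes were called higher and 3948 lower, and the median of all genes tested shifted by -0.07.

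The NRG-1 libraries at 4 hours gave 4 genes called higher and 10 lower, where 21.6% of all genes were called higher and 21.0% lower. The median was -0.09 (range -0.48 to 0.46). None of the 46 passed a log2 fold change of 1 in either direction, which 4.87% of all genes did upward and 432 of 16995 genes did downward. *MCM6*, *CDCA7*, *SLBP*, and *CCNE1* were called higher. *E2F2*, *ORC1*, *CHAF1A*, *E2F7*, *E2F1*, *CHAF1B*, *E2F8*, *TK1*, *MCM3*, and *POLA2* were called lower. With the replicate block 5 were higher and 15 lower, where 4406 of 16995 genes were higher and 4345 lower. *CCNE2* was added upward and *ORC6*, *MCM2*, *PRIM1*, *POLD1*, and *POLE* downward. On log2(TPM + 1) in limma 4 were higher and 19 lower, where 1950 of 13394 genes were higher and 3628 lower. The median of all genes was -0.08 on that scale. Both ligands were compared with the same 4 CSS libraries, so their values against CSS are not independent of each other.

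Of the genes that rose at 4 hours, the helicase subunit *MCM6* moved most. Its CSS libraries had 73.6, 74.4, 69.3, and 69.1 CPM, the EGF libraries had 109, 105, 93.1, and 98.1 CPM, and the NRG-1 libraries had 106, 106, 90.5, and 93.5 CPM. Every ligand library was above every CSS library and below every FBS library, which had 186, 171, 140, and 128 CPM. The log2 difference was 0.50 for EGF (SE 0.058, adjusted p = 3.0e-08, edgeR) and 0.46 for NRG-1 (SE 0.058, adjusted p = 1.6e-07, edgeR), compared with 1.12 for FBS. The other subunits of the MCM ring lay between -0.14 and 0.14 after EGF, and none of them was called higher, although *MCM7* (0.14) was called with the replicate block (adjusted p = 0.036, edgeR). At 1 hour *MCM6* was not called with either ligand (0.05 for EGF and -0.00 for NRG-1).

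*SLBP*, which encodes the protein that binds the stem-loop of histone mRNAs, had 65.5, 68.2, 71.4, and 77.3 CPM in CSS and 86.3, 91.9, 82.2, and 94.4 CPM after EGF. All 4 EGF libraries exceeded all CSS libraries, and the log2 difference was 0.33 (SE 0.080, adjusted p = 0.0010, edgeR). After NRG-1 *SLBP* had 82.2, 85.3, 82.1, and 98.8 CPM, a difference of 0.30 (SE 0.080). In batch 2 alone *SLBP* was not called with either ligand (adjusted p = 0.29 for both, edgeR). *CDCA7*, a chromatin factor whose expression follows MYC and E2F, had 15.0, 13.2, 12.8, and 12.9 CPM in CSS, 16.7, 17.3, 17.2, and 17.7 CPM after EGF, and 16.3, 16.7, 16.6, and 19.1 CPM after NRG-1. The groups did not overlap, and the differences were 0.36 (SE 0.085) and 0.35 (SE 0.085).

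The cyclins E, the activating partners of CDK2 at the G1 to S transition, also rose with EGF. *CCNE1* went from 12.0, 12.1, 14.9, and 14.6 CPM in CSS to 15.2, 15.7, 17.6, and 18.4 CPM after EGF, with batch 2 above batch 1 in both. Its log2 difference of 0.32 (SE 0.063, adjusted p = 8.5e-05, edgeR) stands beside 0.60 for FBS, and FBS remained higher than EGF at 4 hours by 0.28 (SE 0.062, adjusted p = 0.00036, edgeR), the smallest such difference of the 46 genes. After NRG-1 *CCNE1* had 14.9, 15.0, 16.8, and 14.5 CPM, which overlapped with CSS, and the difference was 0.20 (SE 0.063, adjusted p = 0.011, edgeR). *CCNE2* had 29.7, 26.8, 24.8, and 29.4 CPM in CSS and 39.9, 41.8, 29.7, and 37.5 CPM after EGF, a difference of 0.43 (SE 0.14, adjusted p = 0.015, edgeR) that was lost in batch 2 alone or without EGF replicate 2 (adjusted p up to 0.51 over the alternatives). With NRG-1, *CCNE2* had 35.5, 35.7, 26.3, and 43.6 CPM and was not called (0.35, adjusted p = 0.051, edgeR), but it was called with the replicate block (0.33, adjusted p = 0.00077, edgeR). *RRM2* was called for EGF at 4 hours (0.17, SE 0.061, adjusted p = 0.023, edgeR), with 128, 127, 93.3, and 101 CPM against 112, 116, 84.6, and 88.4 CPM, but this call held in 7 of 12 alternatives.

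*E2F1*, *E2F2*, and *E2F7* were lower than in CSS at 4 hours with both ligands. *E2F2*, an activator of the family, had 6.21, 6.45, 5.65, and 4.89 CPM in CSS, 4.45, 4.63, 3.89, and 3.48 CPM after EGF, and 4.88, 4.93, 3.57, and 3.35 CPM after NRG-1. The EGF libraries lay below all CSS libraries, and the differences were -0.50 (SE 0.11, adjusted p = 0.00031, edgeR) for EGF and -0.48 (SE 0.11, adjusted p = 0.00057, edgeR) for NRG-1. *E2F1* had 34.9, 36.7, 26.3, and 24.0 CPM in CSS and 26.4, 26.6, 20.6, and 18.4 CPM after EGF, a difference of -0.40 (SE 0.076); the groups overlap across batches, whereas within each batch both EGF libraries were below both CSS libraries. After NRG-1 the *E2F1* libraries had 30.8, 28.4, 21.6, and 17.8 CPM, and the difference was -0.31 (SE 0.076). *E2F7* had 6.63, 6.80, 5.79, and 5.53 CPM after EGF and 7.02, 5.76, 5.65, and 5.16 CPM after NRG-1, which gave -0.31 (SE 0.11) and -0.38 (SE 0.11). So *E2F1*, *E2F2*, and *E2F7*, the 3 E2F genes called lower with EGF, were each higher in FBS than in CSS by 1.44 to 1.74. Of 12 alternatives, the calls at 4 hours held in 11 (EGF) and 10 (NRG-1) for *E2F2*, in 10 and 10 for *E2F1*, and in 8 and 9 for *E2F7*. With EGF, *E2F1* was not called in batch 2 alone or without a batch term (adjusted p up to 0.15, edgeR), nor were *E2F2* and *E2F7* with NRG-1.

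Among the licensing genes, *ORC1*, the largest subunit of the origin recognition complex, was the one called at 4 hours without the replicate block. It had 12.1, 14.1, 12.5, and 11.0 CPM in CSS, 9.05, 9.10, 8.86, and 8.62 CPM after EGF, and 8.85, 9.32, 9.18, and 9.28 CPM after NRG-1. All 8 ligand libraries were below all CSS libraries, with differences of -0.48 (SE 0.075, adjusted p = 4.9e-06, edgeR) and -0.44 (SE 0.076, adjusted p = 2.4e-05, edgeR), compared with 1.42 for FBS. *CHAF1A* fell from 38.4, 46.5, 36.7, and 32.1 CPM in CSS to 31.9, 31.1, 30.4, and 25.9 CPM after EGF (-0.36, SE 0.11) and to 34.02, 32.1, 27.9, and 21.1 CPM after NRG-1 (-0.42, SE 0.11). *CHAF1A* was not called in batch 2 alone with either ligand, nor with EGF without a batch term (adjusted p up to 0.42, edgeR). Its partner *CHAF1B* fell by 0.25 with EGF and by 0.26 with NRG-1 on the log2 scale, and thymidine kinase *TK1* fell by 0.25 and 0.19. The 4 genes with the largest serum differences were not called at 4 hours without the block: *GINS2* stood at -0.16 and -0.07, *CDC45* at -0.11 and -0.04, *DTL* at -0.12 and -0.15, and *ORC6* at -0.28 and -0.17 for EGF and NRG-1. With the block *ORC6* was called lower with EGF (adjusted p = 0.0012, edgeR) and NRG-1 (adjusted p = 0.032, edgeR), and so was *GMNN* with EGF (-0.31, adjusted p = 0.0029, edgeR).

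Compared directly with the ligands, FBS was higher for 46 of 46 genes than EGF at 4 hours (31.0% of all genes higher and 31.5% lower) and higher for 46 of 46 than NRG-1 at 4 hours (27.8% higher and 29.4% lower). The medians were 1.51 and 1.49, and 42 and 41 of the 46 passed a log2 fold change of 1, as 8.18% and 6.95% of all genes did. *GINS2* was again the largest against EGF, at 2.31 (SE 0.13). The ligand cells stayed in CSS, so these comparisons hold the difference between the serums as well as the ligand.

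EGF and NRG-1 were also set against each other at 4 hours at the same dose. None of the 46 genes was called with edgeR, limma, or DESeq2, and none had an unadjusted p below 0.05 in edgeR, where 1.25% of all genes tested were called higher with EGF and 0.412% lower. The differences ran from -0.18 (*POLE2*, SE 0.17) to 0.20 (*UHRF1*, SE 0.13), and their 95% intervals all lay between -0.51 and 0.46 on the log2 scale. Differences of up to that size between the ligands are therefore not excluded for single genes.

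At 5 minutes none of the 46 genes was called with either ligand in edgeR, DESeq2, or limma, and none had an unadjusted p below 0.05; of all genes tested, 0.00588% were called higher and 0% lower with EGF, and 0% in either direction with NRG-1. After 1 hour of EGF 2 genes were called higher and 0 lower, where 6.00% of all genes were higher and 3.51% lower. *RRM2* had 132, 138, 94.1, and 99.9 CPM and differed from CSS by 0.21 (SE 0.061, adjusted p = 0.023, edgeR). *E2F8*, a repressor of E2F targets named here because it was called, had 12.2, 13.8, 7.94, and 8.14 CPM against 8.93, 10.2, 6.56, and 6.81 CPM in CSS, a difference of 0.36 (SE 0.10, adjusted p = 0.017, edgeR). Both calls rest on few libraries: the count fell to 0 without CSS replicate 1 or without EGF 1 h replicate 2, and to 1 without CSS replicate 3, CSS replicate 4, or EGF 1 h replicate 1. After 1 hour of NRG-1 no gene was called in edgeR, DESeq2, or limma, and 4 had an unadjusted p below 0.05 in edgeR, where 4.45% of all genes were higher and 2.28% lower. With the replicate block *SLBP* was called higher (0.17, adjusted p = 0.0089, edgeR) and *E2F2* lower (-0.27, adjusted p = 0.048, edgeR).

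Between 1 and 4 hours of EGF, 4 genes rose and 15 fell, where 22.5% of all genes rose and 21.5% fell. *MCM6* (0.45), *CDCA7* (0.31), *CCNE1* (0.30), and *SLBP* (0.27) were those that rose, and the largest falls were those of *E2F1* (-0.55), *E2F7* (-0.50), *CHAF1A* (-0.50), *E2F2* (-0.48), and *E2F8* (-0.47). *E2F8* was thus called higher at 1 hour and lower at 4 hours than at 1 hour, and stood at -0.11 (not called) against CSS at 4 hours. With NRG-1, 2 genes rose (*MCM6* by 0.47 and *CDCA7* by 0.30) and 9 fell, where 19.0% of all genes rose and 18.5% fell. The falls included those of *ORC1* (-0.38), *CHAF1A*, *E2F7*, and *E2F8* (each -0.39), and *E2F1* (-0.35). The count that rose was 4 without NRG-1 4 h replicate 4, and with the replicate block 3 rose and 15 fell.

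Per library, the median of the 46 genes relative to the CSS mean of the same batch was 1.41 ± 0.068 (SD, n = 4) in FBS, with single libraries from 1.33 to 1.47. The EGF libraries at 4 hours lay from -0.12 to -0.07, and the NRG-1 libraries at 4 hours from -0.11 to -0.02. All 16 libraries of 5 minutes and 1 hour lay from -0.05 to 0.11, a range that holds the CSS libraries (-0.04 to 0.04).

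**Figure D4:**
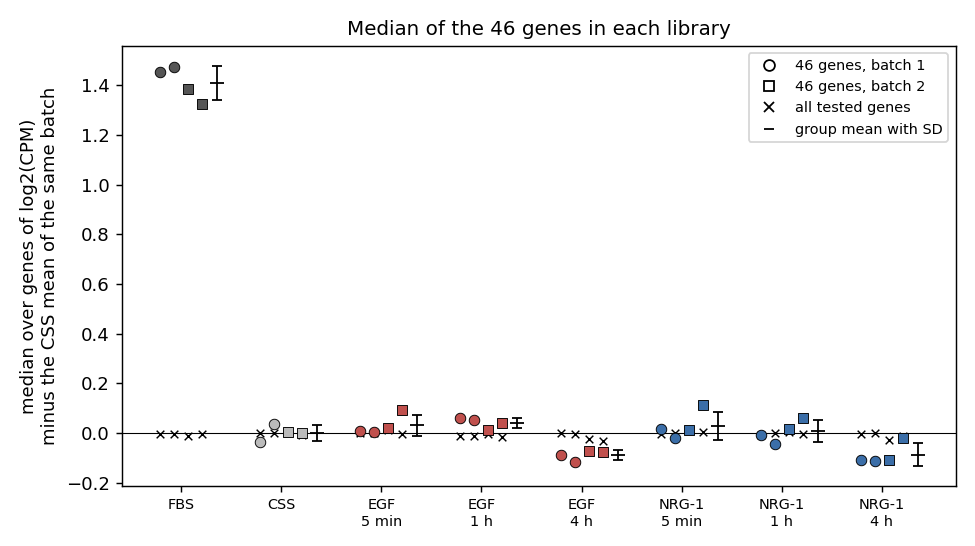
Median over the 46 genes of log2 CPM minus the CSS mean of the same batch, for each of the 32 libraries by group (circles, batch 1; squares, batch 2), with the group mean and SD as bars and the median over all tested genes as crosses. The 4 FBS libraries lie between 1.33 and 1.47, and all other libraries lie between -0.12 and 0.11.

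The libraries of 1 group also varied in a patterned way. After group and batch means were removed, 1 component held 73.4% of the remaining variance of the 46 genes over 32 libraries. All 8 libraries of replicate 3 scored negative on it (-1.08 to -0.312) and all 8 of replicate 4 positive (0.12 to 1.38), although both belong to batch 2. *POLE2*, *GMNN*, *CCNE2*, *PCNA*, *RFC4*, and *GINS1* were at 1 end of this component and *POLE*, *UHRF1*, *CHAF1A*, *LIG1*, and *POLD1* at the other. Residuals of pairs of the 46 genes correlated with a median *r* of 0.23 (1035 pairs over 32 libraries, range -0.95 to 0.98), as a description of genes that share the same libraries. What set replicates 3 and 4 apart was not tested. Without replicate 4 of every group 46 were higher in FBS (4981 of all 16879 genes tested). For EGF at 4 hours 6 were higher and 19 lower (4684 and 4779 of all genes). For NRG-1 at 4 hours 5 were higher and 22 lower (4241 and 4227 of all genes). Without replicate 3 of every group 46 were higher in FBS (4520 of all 16835 genes tested). The EGF counts were then 6 higher and 11 lower (4284 and 4240 of all genes). Those of NRG-1 were 5 higher and 9 lower (3916 and 3712 of all genes).

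**Figure D5:**
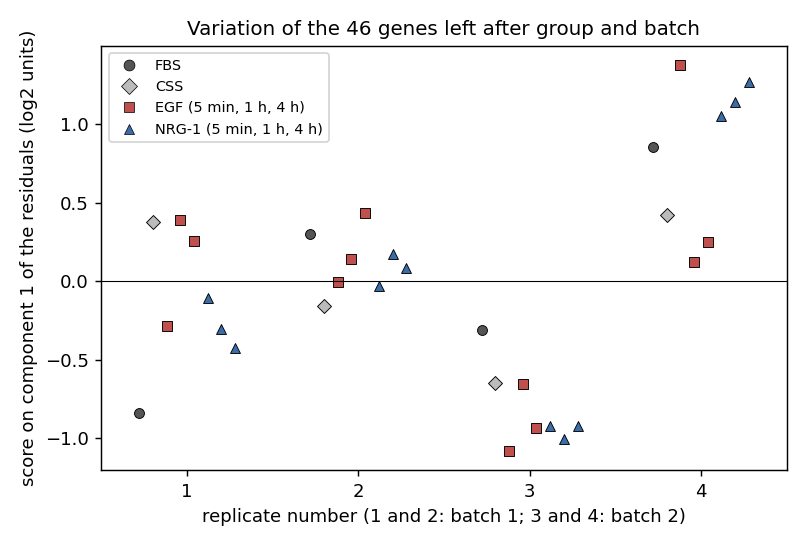
Score of each library on the first component of the residuals of the 46 genes after group and batch (log2 units), by replicate number; dark circles are FBS, light diamonds CSS, red squares EGF, and blue triangles NRG-1. All 8 libraries numbered 3 lie below 0 and all 8 numbered 4 above 0.

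Other genes of the same processes were counted from lists, whose counts stand beside shares over all genes of 26.0% higher and 26.8% lower in FBS, 24.6% and 24.6% with EGF at 4 hours, and 21.6% and 21.0% with NRG-1 at 4 hours. Of 37 further replication genes, 32 were called higher and 2 lower in FBS (median 0.98), led upward by the histone chaperone *ASF1B* (1.65) and downward by topoisomerase I, *TOP1* (-0.45). At 4 hours 7 were higher and 7 lower with EGF, and 3 higher and 6 lower with NRG-1, which is no larger a share than among all genes. The one among them that passed a log2 fold change of 1 was *RECQL4*, a helicase of the RecQ family, which rose from 25.1 ± 3.93 CPM (SD, n = 4) in CSS to 241 ± 38.2 CPM with EGF and 204 ± 45.8 CPM with NRG-1, or by 3.26 (SE 0.11) and 3.01 (SE 0.11). In FBS *RECQL4* was at 56.3 ± 6.22 CPM. The largest fall was that of *MTBP*, which takes part in origin firing, with EGF (-0.53) and that of the primase subunit *PRIM2* with NRG-1 (-0.38).

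Of 24 regulators upstream of S phase, 23 were tested, and 15 were higher and 5 lower in FBS, led by *FBXO5* (1.50), an inhibitor of the anaphase-promoting complex, and *CDKN1C* (-0.70), a CDK inhibitor. With EGF at 4 hours 10 were higher and 9 lower (24.6% and 24.6% of all genes). *CDKN1C* rose by 1.42 (SE 0.16) from 1.09 to 2.85 CPM and cyclin D1, *CCND1*, by 0.59 (SE 0.10), whereas the CDK inhibitors *CDKN2C* and *CDKN1B* fell by 0.84 and 0.77. In FBS *CDKN2C* was instead higher than in CSS, by 1.28. With NRG-1 9 were higher and 8 lower (21.6% and 21.0% of all genes), with *CDKN1C* at 1.46, *CCND3* at 0.58, *CDKN2C* at -0.79, and *LIN54*, a subunit of the complex that represses cell cycle genes in quiescence, at -0.63. Of 25 genes of G2 and mitosis, 25 were higher in FBS (median 1.26), led by the mitotic kinase *AURKB* (1.64). At 4 hours 1 was higher (*CCNF*, 0.28) and 20 lower with EGF (median -0.36), where 24.6% of all genes were called lower. The spindle checkpoint kinase *TTK* fell most (-0.85). With NRG-1 0 were higher and 17 lower (median -0.32), where 21.0% of all genes were called lower. The medians of the 46 replication and G1/S genes were -0.11 and -0.09 with EGF and NRG-1, and the difference between the lists was not tested.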

How the data were processed

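RNA-Seq libraries of LNCaP cells (8 groups of 4) were grouped by their labels, and replicates 1 and 2 of batch 2 are called replicates 3 and 4 here. Per the labels, polyadenylated RNA was sequenced with its strand. According to the submitters' processing notes, reads were trimmed with Trimmomatic 0.36 and quantified with RSEM and STAR 2.7.0f on hg19, and the annotation is not given in the sources used here. The authors deposited expected counts (estimated counts, not normalized) and TPM values (normalized for transcript length and library total) per gene symbol, without pooling replicates. Multireads are shared out by the authors' estimation, so values of genes with near-identical copies are less certain.

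Expected counts were rounded. A gene was tested if 3 or more libraries reached 5 counts (16995 of 25498). Group and batch were fitted over all 32 libraries with edgeR 4.0.16 (quasi-likelihood test, TMM, R 4.3.3). TPM served to compare levels between genes. The fits were tried on simulated counts with the same spread for all genes and genes changed in FBS only. The simulation held no batch or replicate effect, so it cannot show how the fits handle those in these data. Sequences were taken from RefSeq (GRCh38.p14), a different build from that of the reads, so no read-based value is tied to their coordinates.

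The members, lists, and tests were chosen with earlier results of these data known. Values are given per library for the 4 largest called differences in each direction (average log2 CPM of at least 1, same sign in both batches) in FBS and after 4 hours of each ligand, and for the gene of each role with the largest difference in FBS. Other genes are named because they were called or belong to a subunit or role described. Same-numbered libraries deviated together from their group means in all 112 pairs (*r* over 0.1). Batch was left in these deviations, and same-numbered libraries share a batch, so they cannot show pairing within a batch. With group and batch removed, all 8 replicate 3 libraries scored negative on the component described above and all 8 of replicate 4 positive. Replicate 1 (3 positive, 5 negative) and replicate 2 (5 positive, 3 negative) were mixed. The replicate block is therefore given as an alternative fit only. Alternatives were DESeq2 1.42.0 (test, and size factors in edgeR), other count filters, no batch term, a replicate block, each batch alone, fits of only the groups compared, limma 3.58.1 on log2(TPM + 1) or log2(TPM + 0.1), each library left out, and a log2 fold change limit. The 5-minute libraries as controls and the omission of replicate 3 or 4 of every group were chosen after seeing the data.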

Additional observations from a re-analysis of the deposited data

Results flagged for a closer look

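Among 152 groups of 4 libraries (19 values in 8 groups each), 17 had 1 library far from the other 3 relative to the group's range, where chance gives about 8. Replicate 4 was the distant library in 10 of them and replicate 3 in 7, and none was a library of batch 1. High in replicate 4 were *ORC6* after 5 minutes of EGF (23.2 CPM; others 15.6 to 16.6), after 5 minutes of NRG-1 (21.1 CPM; others 15.5 to 16.0), and after 4 hours of NRG-1 (22.0 CPM; others 14.7 to 15.6), *CDCA7* after 4 hours of NRG-1 (19.1 CPM; others 16.3 to 16.7), *SLBP* after 5 minutes of EGF (81.8 CPM; others 66.4 to 68.6) and of NRG-1 (84.1 CPM; others 67.0 to 69.0), and *POLE2* after 5 minutes of EGF (5.36 CPM; others 3.50 to 3.71). Low in replicate 4 were *CHAF1A* (31.5 CPM; others 41.6 to 43.2) and *UHRF1* (17.2 CPM; others 22.2 to 22.8) after 5 minutes of NRG-1. The median over the 46 genes after 4 hours of NRG-1 was -0.0199 in replicate 4 and -0.11 in the other 3 libraries.

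Low in replicate 3 were *GINS2* in CSS (16.3 CPM; others 19.4 to 19.9), *CDC45* after 5 minutes (14.9 CPM; others 17.8 to 18.1) and 4 hours (13.7 CPM; others 16.8 to 17.1) of NRG-1, *MCM6* after 5 minutes (66.7 CPM; others 74.0 to 74.9) and 1 hour (69.0 CPM; others 72.1 to 72.4) of NRG-1, *CDCA7* after 1 hour of NRG-1 (11.6 CPM; others 14.5 to 15.0), and *PCNA* after 4 hours of EGF (107 CPM; others 130 to 132).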

How the results depend on the processing

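The comparisons of FBS with CSS and with 4 hours of either ligand kept 44 to 46 of the 46 genes higher and 0 lower under every alternative fit, and a log2 fold change limit of 1 left 41 or 42. No called result reversed. The small changes of the ligands depended more on the processing, and the cause was not tested. Counts over all genes moved as well. With EGF at 4 hours, 4175 of 16995 genes were lower in the main fit and 3303 without a batch term. Batch 2 alone gave 1447 of 16578 lower and 2195 higher, where the main fit gave 4183 of 16995 higher. With NRG-1 the counts of lower genes were 3570, 2631, and 1040. Batch 2 alone gave 1511 higher with NRG-1, and the main fit 3675. With batch 2 alone, where 2 libraries stand on each side, 3 genes were higher and 2 lower after 4 hours of EGF, 2 higher and 2 lower after 4 hours of NRG-1, 0 higher after 1 hour of EGF, 2 lower from 1 to 4 hours of EGF, and 1 higher and 2 lower from 1 to 4 hours of NRG-1. Without a batch term 5 were lower for EGF and 4 for NRG-1 at 4 hours, 0 higher for EGF at 1 hour, and 7 and 3 lower from 1 to 4 hours. With the replicate block 17 were lower for EGF at 4 hours, 1 higher and 1 lower for NRG-1 at 1 hour, and 15 lower from 1 to 4 hours of NRG-1; the block kept all calls made without it, and the calls it added at 1 and 4 hours against CSS are named in the results. In limma on log2(TPM + 1) and on log2(TPM + 0.1), 20 and 20 were lower for EGF and 19 and 20 for NRG-1 at 4 hours, and 2 and 2 higher and 24 and 24 lower from 1 to 4 hours of EGF. With fits of only the groups compared, 5 were higher after 1 hour of EGF and 1 from 1 to 4 hours of NRG-1. With 5-minute libraries as controls 15 were lower for EGF at 4 hours. Counts over all genes are not given here for those controls, for fits of only the groups compared, or for alternatives at 1 hour or between times. The counts of the 46 in these fits therefore cannot be set beside all genes. A log2 fold change limit of 1 left 0 in either direction in all comparisons of ligand with CSS or between times.

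Leaving out single libraries, or replicate 3 or 4 of every group, gave 8 to 19 lower after 4 hours of EGF and 8 to 22 after 4 hours of NRG-1, 0 to 3 higher after 1 hour of EGF, 0 to 1 higher and 0 to 1 lower after 1 hour of NRG-1, 2 to 4 higher and 9 to 17 lower from 1 to 4 hours of NRG-1, and 11 to 22 lower from 1 to 4 hours of EGF. At 4 hours, against CSS or 1 hour, the highest counts of lower genes were those without replicate 4 of every group. With single libraries left out, the count of higher genes after 1 hour of EGF was 0 to 2. Counts over all genes are not given for single libraries left out, so these ranges cannot be set beside all genes.

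What depth limits was not tested. Calls at 4 hours held in 6 of 12 alternatives for *MCM3* and *E2F8* with NRG-1, in 7 of 12 for *CCNE1* with NRG-1 and *RRM2* with EGF, and in 8 of 12 for *E2F7* with EGF and *POLA2* with NRG-1, and that of *POLE* in FBS in 8 of 12, whereas *MCM6*, *ORC1*, *CHAF1B*, and *CDCA7* kept their calls with both ligands in 12 of 12.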
